A study of Mus musculus with 54 samples.

Results

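The genes described here encode the proteins of the cytosolic ribosome. They were taken as every gene whose annotated symbol is Rpl or Rps followed by digits and at most one of the letters a, l or x, or Rplp followed by a digit, on a probe set annotated with that single symbol. This gave 98 probe sets for 45 genes, of 45037 probe sets and 18193 singly annotated genes in all. Of the 45 genes, 24 belong to the large subunit and 21 to the small one. A further 110 probe sets name such a symbol beside other symbols and were set apart, and 28 further symbols, Rplp1 among them, occurred on these alone.

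The study measured gene expression on Affymetrix mouse 3' arrays in hippocampus, striatum and brainstem of male mice from 6 inbred strains, which the labels name C57L/J, C57BLKS/J, BalbC/J, C3H HeJ, C57BL10/J and C57BL6/J. None of the groups carried an engineered allele, and C57BL6/J served here as the reference strain. Each strain and tissue had 3 arrays, 1 from mice tested for prepulse inhibition (the damping of a startle by a softer sound just before it) at postnatal day 50 and 2 from untested mice, all killed at postnatal day 60. Each array carried tissue pooled from 3 mice, so the spread between arrays is a spread between pools, and since the labels give fewer mice per strain than separate pools would need, the 3 tissues came in part from the same mice.

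A ribosome is built from a small subunit, which reads the messenger RNA, and a large subunit, which joins the amino acids. Nearly all ribosomal protein genes are active in every cell, and their products are needed together. Their messenger RNAs typically begin with a run of pyrimidines, through which the kinase mTOR adjusts their translation to growth conditions. In neurons, ribosomes in dendrites support local protein synthesis.

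The deposited values are on a log2 scale, so a difference of 1 is a 2-fold change of signal. Array medians lay between 4.17 and 4.72, and the 40th percentile, the level a probe set had to pass on at least 3 of the 18 arrays of a tissue to be tested, lay between 3.12 and 3.47. Tissue marker genes were highest in their own tissue for 7 of 7 hippocampal, 6 of 6 striatal and 7 of 7 brainstem markers. The brainstem marker Chat, at 1.51, 1.58 and 1.62 in hippocampus, striatum and brainstem, lay below the 40th percentile throughout, so its rank is not informative. The second untested C3H HeJ brainstem pool stood 4.73 above the tissue mean in its median cerebellar marker, and the second untested C57L/J striatum pool 0.89 below it in its median striatal marker. No 2 arrays held identical values, and the highest correlation between arrays was 0.9992. A probe set's value depends on the amount of transcript and on how well its probes match it, and the 2 cannot be told apart here, so levels of different probe sets were not ranked. In pooled bulk tissue, fewer cells of a type and less RNA per cell cannot be told apart either.

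The annotated starts were searched for the pyrimidine run that the family is known for. RefSeq promoter windows (GRCm38.p6) were found for 39 of the 45 genes, with 47 annotated starts. A run of at least 8 consecutive C or T bases on the gene's own strand, touching the 10 bases on either side of the start, was present at 19 of these 47 starts (40.4%), in 19 genes, against 13.7% of all 32841 starts. On the other strand (a run of G or A on the gene's strand) it was present at 2.13% of the starts of these genes, against 15.1% of all starts. The windows below run from 40 bases before the start to 20 bases from it, 5′ to 3′ on the gene's strand, with the longest such run in capitals where there was one. They are shown for the genes with the widest strain differences that the table holds (Rps9, Rps6, Rpl14, Rps3 and Rps2) and for Rps18, Rps10 and Rps19, 3 of the genes described below as higher in C3H HeJ striatum. For Rps19 the first of 3 annotated starts is shown.
Rps9 (chr7:3704001-3704060, plus strand): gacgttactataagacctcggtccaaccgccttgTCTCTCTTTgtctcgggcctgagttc
Rps6 (chr4:86857348-86857407, minus strand): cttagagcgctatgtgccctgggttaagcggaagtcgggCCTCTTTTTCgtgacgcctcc
Rpl14 (chr9:120571477-120571536, plus strand): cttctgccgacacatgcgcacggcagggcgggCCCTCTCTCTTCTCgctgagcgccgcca
Rps18 (chr17:33955646-33955705, minus strand): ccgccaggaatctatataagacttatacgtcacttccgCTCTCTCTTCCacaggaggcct
Rps10 (chr17:27635225-27635284, minus strand): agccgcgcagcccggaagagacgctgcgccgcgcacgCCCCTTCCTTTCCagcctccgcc
Rps19 (chr7:24884552-24884611, plus strand): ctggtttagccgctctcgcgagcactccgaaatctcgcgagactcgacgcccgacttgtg
Rps3 (chr7:99483690-99483749, minus strand): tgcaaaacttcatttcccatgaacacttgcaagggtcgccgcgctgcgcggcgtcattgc
Rps2 (chr17:24720023-24720082, plus strand): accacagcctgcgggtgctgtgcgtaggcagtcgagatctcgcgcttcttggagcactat
The Rps3 and Rps2 windows hold no such run at their annotated starts, and neither do the 3 windows of Rps19.

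A filter on low values left 85 of the 98 probe sets for hippocampus, 86 for striatum and 85 for brainstem, covering 42 genes each time. The 3 genes with no tested probe set were Rpl39l and Rpl3l, paralogues known chiefly from testis and from muscle, and Rps16, a small subunit protein. Their probe sets averaged 2.49, 2.62 and 1.85 over the 54 arrays. A further 2 probe sets name Rps16 beside other symbols and were set apart. The low value of its single-symbol probe set therefore does not stand for the whole Rps16 signal. By the suffix of the probe set ID, 40 of the 98 were of the _x_at kind and 3 of the _s_at kind, in which some or all probes may also match transcripts of other genes. Ribosomal protein genes have many processed copies in the genome, so part of a value on these may come from such copies.

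In a comparison of all 6 strains, most ribosomal protein probe sets differed little. The range of the 6 strain means had a median over the tested ribosomal protein probe sets of 0.17 (hippocampus), 0.28 (striatum) and 0.16 (brainstem), against 0.30, 0.37 and 0.32 over all probe sets tested. These ranges also hold the spread between pools, and the comparison was not matched for signal level. By limma's moderated F test at an adjusted p under 0.05, 26 of 85 probe sets were called in hippocampus, where 32.7% of all probe sets tested were called. In striatum 35 of 86 were called, against 23.9% of all, and in brainstem 20 of 85, against 22.3% of all. Of the large subunit probe sets, 12, 14 and 10 of 40 were called in hippocampus, striatum and brainstem. Of the small subunit probe sets, 14 of 45, 21 of 46 and 10 of 45 were called in the same tissues. Called ranges over 2-fold numbered 6, 6 and 4, against 7.31%, 8.61% and 6.66% of all probe sets tested. A total of 10 probe sets, for 8 genes, were called in all 3 tissues, where 9.86% of all were.

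Rps9 differed most. It encodes a small subunit protein that binds early in assembly and lies near the messenger RNA entry site, and the gene is on chromosome 7. In hippocampus its brightest probe set, 1434624_x_at, read 9.22, 9.65 and 9.49 in C3H HeJ, 9.59, 9.54 and 9.24 in BalbC/J, and 9.61, 9.58 and 9.35 in C57L/J (in the order tested, first untested and second untested pool). It read 14.80, 14.61 and 14.53 in C57BL10/J and 14.63, 15.01 and 14.86 in C57BLKS/J, against 14.58, 14.80 and 14.66 in C57BL6/J. C3H HeJ, BalbC/J and C57L/J thus formed a low group and the other 3 strains a high group, with no array between them.

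The same split of the strains was seen in the other tissues. In striatum 1434624_x_at of Rps9 read 9.30, 9.60 and 10.52 in C3H HeJ, 8.93, 9.71 and 9.32 in BalbC/J and 9.40, 9.19 and 9.02 in C57L/J, against 14.69, 14.70 and 14.45 in C57BL6/J. In brainstem it read 9.30, 9.33 and 9.12 in C3H HeJ, 9.98, 9.48 and 9.97 in BalbC/J and 10.04, 9.88 and 9.50 in C57L/J, against 14.98, 15.11 and 15.20 in C57BL6/J. The tested pools lay with the untested ones of their strain. In hippocampus, C3H HeJ differed from C57BL6/J by -5.23, BalbC/J by -5.22 and C57L/J by -5.17 (SE 0.13 each), which is 37.5-, 37.3- and 35.9-fold lower, with limma adjusted p of 2.11e-13, 1.54e-13 and 3.26e-13. In striatum the same strains were lower by a log2 difference of -4.81, -5.29 and -5.41 (SE 0.25), and in brainstem of -5.85, -5.29 and -5.29 (SE 0.14).

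A second Rps9 probe set, 1433689_s_at, did not show this split. It lay between 11.64 and 12.52 on all 54 arrays. In the low group it thus read above 1434624_x_at, which was the brightest only by the mean over all arrays (12.14, against 12.09 for 1433689_s_at). Its hippocampus means were 12.22 ± 0.15 in C57L/J, 12.00 ± 0.04 in BalbC/J and 11.90 ± 0.09 in C3H HeJ, against 12.08 ± 0.16 in C57BL6/J (SD, n = 3 each). The range of its strain means was 0.44, 0.42 and 0.25 in hippocampus, striatum and brainstem, with limma adjusted p of 0.016, 0.040 and 0.040. The test of the difference between the 2 probe sets within each array gave ranges of 5.60, 5.41 and 5.89 across strains, with limma adjusted p of 1.15e-14, 4.04e-11 and 2.33e-14. The remaining Rps9 probe set, 1426958_at, averaged 2.69 and was not tested.

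**Figure D1:**
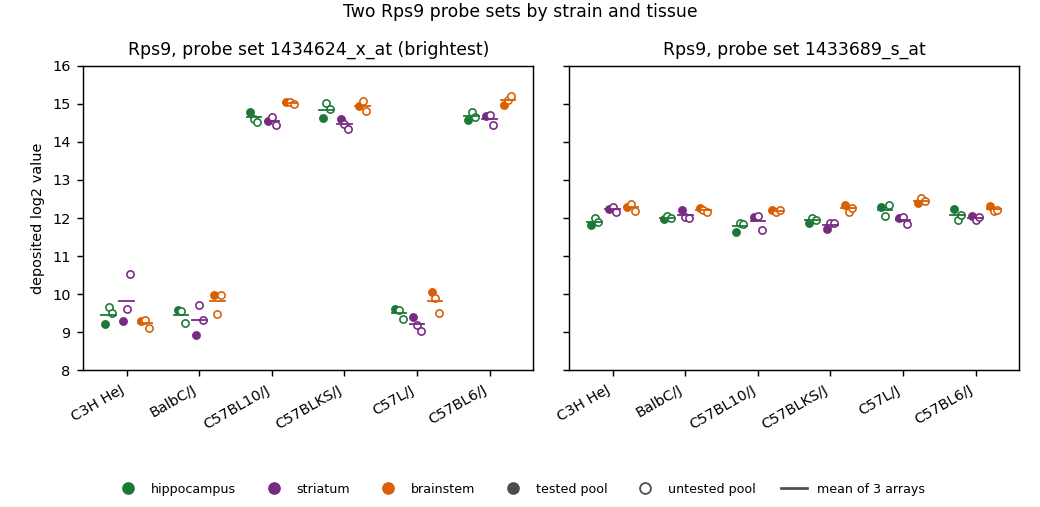
Each point is 1 array, with strains along the x axis, tissues by colour, the deposited log2 value on the y axis and 1 panel for each of 2 Rps9 probe sets, and short lines are means of 3 arrays. The brightest probe set, 1434624_x_at, lies between 8.93 and 10.52 in C3H HeJ, BalbC/J and C57L/J and above 14 in the other 3 strains, while 1433689_s_at stays between 11.64 and 12.52.

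Rps3, whose small subunit protein sits at the messenger RNA entry channel and also takes part in DNA repair, differed widely on 1 probe set and little on another. On 1455600_at it read 5.50, 5.92 and 6.25 in C3H HeJ hippocampus, against 7.66, 7.43 and 7.61 in C57BL6/J hippocampus. It read 4.35, 4.30 and 4.11 against 5.39, 5.26 and 5.22 in striatum, and 5.54, 5.98 and 5.62 against 7.75, 7.85 and 7.88 in brainstem, for C3H HeJ and C57BL6/J in that order. All C3H HeJ arrays lay below all C57BL6/J arrays of their tissue. The log2 difference was -1.67 (SE 0.16), -1.03 (SE 0.14) and -2.11 (SE 0.11), with limma adjusted p of 1.80e-06, 0.000174 and 9.67e-09. The brightest Rps3 probe set, 1435151_a_at, averaged 14.2 over the arrays and had ranges of strain means of 0.06, 0.27 and 0.15, none of them called (limma adjusted p of 0.885, 0.058 and 0.094). The pair test gave ranges of 1.74, 1.31 and 2.22 with limma adjusted p of 2.61e-06, 1.02e-05 and 1.02e-09.

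Of the 22 genes with 2 or more probe sets, 19 had at least 2 tested ones in each tissue. Among these, exactly 1 probe set was called across strains for 7 genes (hippocampus), 7 genes (striatum) and 5 genes (brainstem). That is 36.8%, 36.8% and 26.3% of them, against 30.6%, 28.3% and 25% of all genes on the array with at least 2 tested probe sets. No probe set was called for 7, 4 and 11 genes, against 42.7%, 54% and 58.4% of all such genes on the array. All were called for 2, 2 and 2 (10.5% each time), against 13%, 8.08% and 7.87%. Several but not all were called for 3, 6 and 1, against 816 of 5917, 561 of 5869 and 521 of 5996 of all such genes. A call on 1 probe set alone does not show that the probe sets differ, so each other probe set was also tested against the gene's brightest one within the arrays. For hippocampus 9 of 43 pairs were called, for striatum 6 of 44 and for brainstem 7 of 43, against 30.7%, 22.5% and 23.2% of all such pairs on the array. Both conditions held for Rps3, Rpl27 and Rpl37a in hippocampus, Rps3 and Rpl13a in striatum, and Rps3 and Rpl22 in brainstem. Rpl27 and Rpl37a, both large subunit genes, are named here because they met both conditions, after their values were seen. In hippocampus the called Rpl27 probe set, 1453096_x_at, had a range of 0.18, while another that was not called had 0.23. Of the 2 Rpl27 pairs, 1 was called. For Rpl37a the called 1416218_x_at had a range of 0.36, and its other probe sets had 0.11 to 0.14.

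Besides Rps9 and Rps3, pairs of Rpl22 and Rpl13a were called in all 3 tissues, at much smaller ranges. Rpl22 encodes a large subunit protein that cells can replace by its paralogue Rpl22l1. Its probe set 1448398_s_at averaged 10.78 ± 0.10 in BalbC/J hippocampus, against 11.08 ± 0.15 in C57BL6/J hippocampus (SD, n = 3 each). Its brightest probe set, 1453118_s_at, averaged 13.16 ± 0.04 and 13.10 ± 0.09 in these groups. The pair's range across strains was 0.42, 0.66 and 0.28 in hippocampus, striatum and brainstem, with limma adjusted p of 0.00316, 0.00195 and 0.0126. Rpl13a, known also for a role outside the ribosome in silencing inflammatory messenger RNAs in human cells, gave a range of 0.50, 0.41 and 0.45 for 1433928_a_at against 1455485_x_at, with limma adjusted p of 0.00233, 0.000883 and 7.40e-05. In that pair, 1433928_a_at stood higher relative to the brightest probe set in C3H HeJ and BalbC/J than in C57BL6/J, by 0.28 and 0.43 in hippocampus and by 0.08 and 0.19 in brainstem. Rpl7, a large subunit gene, had only 1426162_a_at called in all 3 tissues, with ranges of 0.16, 0.26 and 0.17, but its pair was not called (lowest limma adjusted p 0.281).

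Rps6, on chromosome 4, encodes the small subunit protein that S6 kinases phosphorylate downstream of mTOR. Its tested probe set, 1416142_at, read 4.68, 4.74 and 4.62 in BalbC/J hippocampus, against 7.36, 6.90 and 7.29 in C57BL6/J hippocampus. In striatum it read 4.26, 3.66 and 4.39 in BalbC/J, against 6.61, 6.14 and 6.29 in C57BL6/J, and in brainstem 3.82, 4.12 and 3.97 in BalbC/J, against 6.81, 7.13 and 6.97 in C57BL6/J. BalbC/J was the lowest strain in each tissue, and its arrays did not overlap with those of C57BL6/J. The difference of BalbC/J from C57BL6/J was -2.50 (SE 0.17), -2.25 (SE 0.19) and -3.00 (SE 0.31) in the same tissue order, with limma adjusted p of 4.23e-08, 1.58e-06 and 1.58e-05. In C3H HeJ hippocampus the difference of Rps6 was -0.59 (SE 0.17, limma adjusted p 0.0229). The second singly annotated Rps6 probe set, at a mean of 2.80, was not tested, and 9 further probe sets name Rps6 beside other symbols, so this dim probe set does not stand for the whole Rps6 signal.

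Rps4l, on chromosome 6, is named as an S4-like paralogue of the small subunit gene Rps4x, and its single probe set, 1452730_at, differed by strain and by tissue. It read 7.12, 6.89 and 6.95 in C57BLKS/J hippocampus, against 10.11, 10.13 and 10.18 in C57BL6/J hippocampus. In striatum it read 4.51, 4.93 and 4.89 in C57BLKS/J, against 7.68, 8.03 and 7.82 in C57BL6/J. In brainstem the gap was smaller, at 9.03, 8.90 and 8.89 in C57BLKS/J, against 10.19, 9.76 and 9.88 in C57BL6/J. The difference was -3.15 (SE 0.16), -3.07 (SE 0.35) and -0.998 (SE 0.24), with limma adjusted p of 4.77e-09, 0.000102 and 0.0391. The brainstem call was lost in 14 of 18 fits that left out 1 array, where its adjusted p reached 0.153. BalbC/J was lower than C57BL6/J by a log2 difference of -2.03, -2.18 and -0.80, the last also lost in 15 of 18 such fits (limma adjusted p up to 0.156).

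Rpl14, on chromosome 9, encodes a large subunit protein and differed in C57BLKS/J. Its single probe set, 1422128_at, read 7.28, 7.51 and 7.53 in C57BLKS/J hippocampus, against 5.58, 5.37 and 5.50 in C57BL6/J hippocampus. It read 6.30, 6.97 and 6.58 in C57BLKS/J striatum, against 5.24, 5.17 and 5.16 in C57BL6/J striatum, and 9.05, 9.12 and 8.94 in C57BLKS/J brainstem, against 6.92, 6.93 and 6.95 in C57BL6/J brainstem. C57BLKS/J was the highest strain for Rpl14 in each tissue. The difference was 1.96 (SE 0.12), 1.43 (SE 0.18) and 2.11 (SE 0.13), or 3.88-, 2.69- and 4.31-fold higher, with limma adjusted p of 3.05e-08, 0.000283 and 2.43e-07. A further 5 probe sets name Rpl14 beside other symbols.

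Rps2 and Rps14 differed at high signal by smaller amounts. Rps2, on chromosome 17, encodes a protein near the messenger RNA entry site and was measured on 1431766_x_at. In hippocampus C3H HeJ averaged 13.67 ± 0.06, BalbC/J 13.80 ± 0.07 and C57BLKS/J 12.75 ± 0.01, against 13.24 ± 0.07 in C57BL6/J (SD, n = 3 each). The differences from C57BL6/J were 0.43, 0.56 and -0.49 (SE 0.05 each), with limma adjusted p of 5.71e-06, 3.64e-07 and 4.33e-06, and no group overlapped with C57BL6/J. C3H HeJ and BalbC/J were higher in striatum and brainstem as well, while C57BLKS/J was lower in striatum (-0.66, SE 0.06) and averaged 12.68 ± 0.06 in brainstem, against 12.71 ± 0.05 in C57BL6/J brainstem. Rps14, on chromosome 18, is the gene whose single-copy loss causes anaemia in the human 5q- syndrome. Its brightest probe set, 1437706_x_at, averaged 13.68 ± 0.02 in BalbC/J hippocampus, against 14.10 ± 0.12 in C57BL6/J hippocampus, and was lower by a log2 difference of -0.42, -0.27 and -0.51 in hippocampus, striatum and brainstem (limma adjusted p 2.82e-05, 0.0241 and 2.11e-06). Its other probe set, 1436586_x_at, was lower by -0.45 in BalbC/J hippocampus and by -0.53 in BalbC/J brainstem (limma adjusted p 0.00161 and 1.18e-05). In BalbC/J striatum 1436586_x_at was not called lower.

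**Figure D2:**
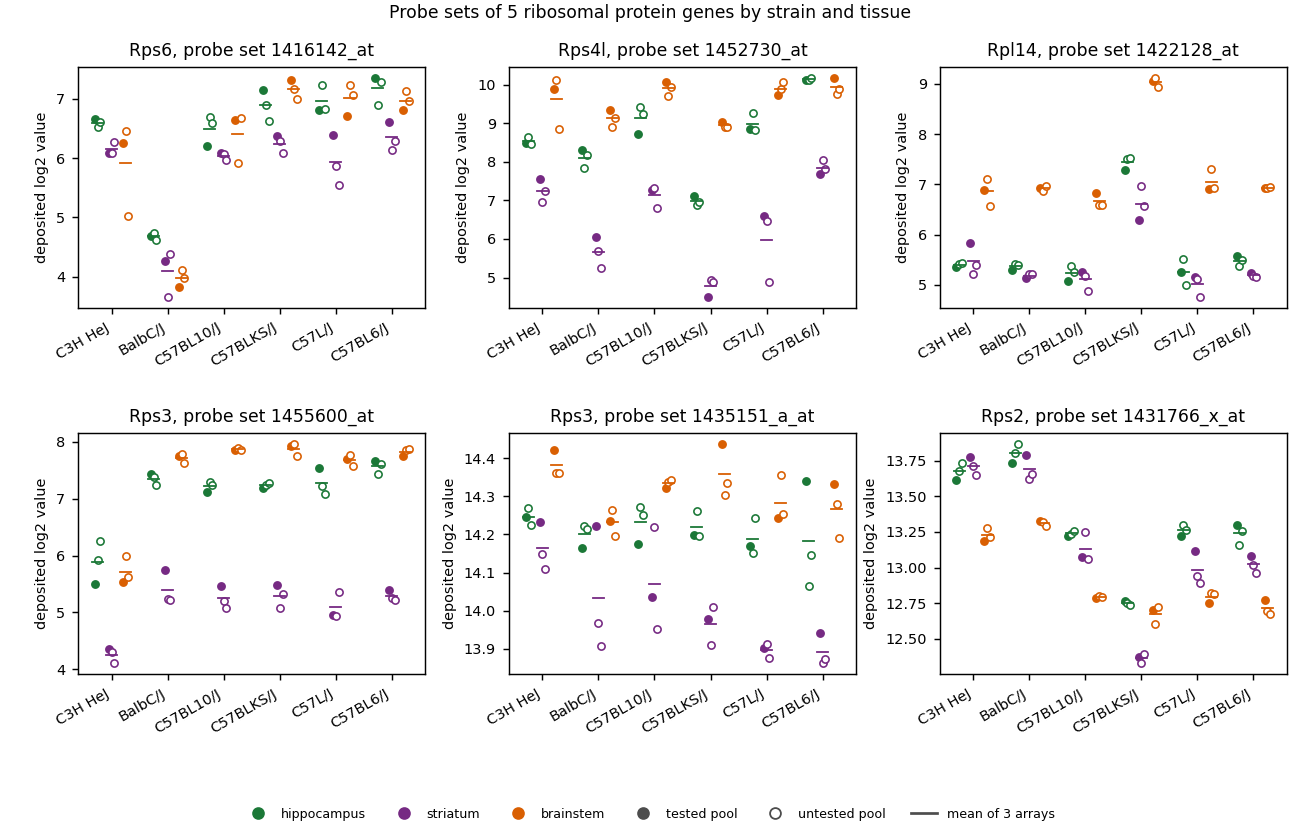
Each point is 1 array, with strains along the x axis, tissues by colour and the deposited log2 value on the y axis, in 6 panels for probe sets of Rps6, Rps4l, Rpl14, Rps3 (2 probe sets) and Rps2. Rps6 was lowest in BalbC/J, Rps4l lowest and Rpl14 highest in C57BLKS/J, and Rps3 on 1455600_at lowest in C3H HeJ in each tissue.

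Each strain was then set against C57BL6/J over all tested ribosomal protein probe sets. These contrasts share the C57BL6/J arrays, so their counts are not independent of each other. In hippocampus C3H HeJ had 12 probe sets called, where 19.8% of all probe sets tested were, 2 of them higher (8.64% of all) and 10 lower (11.2%). BalbC/J hippocampus had 15 called (14.5% of all), 5 higher (6.02%) and 10 lower (8.43%). C57BLKS/J had 4 (6.34%), 2 higher (2.46%) and 2 lower (3.88%), and C57BL10/J and C57L/J had 2 lower each and 0 higher. For C57BL10/J hippocampus 2.52% of all were called, 0.811% higher and 1.71% lower, and for C57L/J hippocampus 4.95%, 1.81% higher and 3.15% lower.

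In brainstem C3H HeJ had 14 called (18.4% of all), 3 higher (11.2%) and 11 lower (7.13%). BalbC/J brainstem had 14 called (10.8% of all), 4 higher (6.64%) and 10 lower (4.16%). C57BLKS/J had 2 (2.74%), 1 higher (1.31%) and 1 lower (1.43%). C57BL10/J and C57L/J had 1 lower each and 0 higher, where 3.88% and 3.54% of all were called, 2.26% and 1.86% higher and 1.61% and 1.68% lower.

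Several of these counts rested on single pools. The C3H HeJ brainstem count of 14 was 6 without the second untested C3H HeJ pool, the one with raised cerebellar markers, 6 without the tested C57BL6/J pool and 5 without the second untested C57BL6/J pool. The BalbC/J brainstem count of 14 was 7 to 9 without any one BalbC/J or C57BL6/J brainstem pool. In hippocampus the C3H HeJ count of 12 was 7 without its second untested pool or without the second untested C57BL6/J pool and 21 without the first untested C57BL6/J pool, and the BalbC/J count of 15 was 9 without its first untested pool. The C57BLKS/J hippocampus count of 4 was 10 without the tested C57BL6/J pool. The 6-strain hippocampus count of 26 was 17 without the first untested BalbC/J pool.

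Marker genes of cell types and regions also differed from C57BL6/J, given as the log2 of their summed signal over 3 pools each. Markers counted as higher or lower are those whose pools did not overlap with C57BL6/J. No share of all probe sets without overlap is given beside these counts. They therefore do not by themselves show a shift in cell makeup. Marker differences of this kind were seen in several strains. In C57L/J brainstem 5 of 8 cerebellar markers were higher (13.19 to 13.90). In BalbC/J brainstem 7 of 8 cerebellar markers were higher than in C57BL6/J without overlap, with sums of 13.35 to 14.16 in BalbC/J and 12.83 to 12.97 in C57BL6/J. Astrocyte markers there were 3 higher and 1 lower of 6 (16.33 to 16.39 in BalbC/J, 16.17 to 16.22 in C57BL6/J). Microglial markers, 3 higher and 2 lower of 7, summed to 12.00 to 12.15 in BalbC/J and 12.33 to 12.46 in C57BL6/J. In C3H HeJ brainstem 5 of 8 cerebellar markers were higher (13.05 to 17.03) and 5 of 6 oligodendrocyte markers lower and 1 higher (17.02 to 17.25, against 17.28 to 17.34 in C57BL6/J). Brainstem markers, 1 lower and 0 higher of 7, summed to 12.33 to 13.54 in C3H HeJ and 13.94 to 14.04 in C57BL6/J. Those sums were also lower in C57BL10/J (13.1 to 13.2) and C57BLKS/J (12.9 to 13.3). Microglial markers, 2 lower and 0 higher of 7, summed to 11.19 to 11.93 in C3H HeJ.

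In hippocampus, oligodendrocyte markers were lower for 5 of 6 in C3H HeJ (16.35 to 16.50) and for 4 of 6 in BalbC/J (16.29 to 16.41), against 16.51 to 16.75 in C57BL6/J. They were also lower for 4 of 6 in C57BL10/J (16.46 to 16.58) and in C57BLKS/J (16.47 to 16.56), where the sums overlapped with C57BL6/J. Hippocampal markers were lower for 3 of 7 in C3H HeJ (14.52 to 14.58) and for 4 of 7 in BalbC/J (14.44 to 14.61), with 1 higher in each, against 14.64 to 14.69 in C57BL6/J. Microglial markers were 3 lower and 1 higher of 7 in C3H HeJ and 2 lower and 1 higher in BalbC/J. They summed to 12.31 to 12.39 in C3H HeJ and 12.51 to 12.54 in BalbC/J, against 12.62 to 12.89 in C57BL6/J. Of the astrocyte markers, 3 of 6 were higher in BalbC/J (16.35 to 16.39, against 16.18 to 16.31). None of these markers was at 0, and their part in the ribosomal protein counts was not tested.

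The probe sets called the same way in all 3 tissues were few. In this paragraph Rps9 stands for 1434624_x_at alone and Rps3 for 1455600_at alone, as the other tested probe set of each gene did not share these differences. C3H HeJ had Rps9 (mean difference -5.29) and Rps3 (-1.61) lower and Rps2 (0.55) higher, where 2.55% of all probe sets tested in the 3 tissues were lower and 2.48% higher. BalbC/J had Rps9 (-5.27), Rps6 (-2.58), Rps4l (-1.67) and Rps14 (-0.40) lower and Rps2 (0.61) higher, against 1.82% and 1.62% of all. C57BLKS/J had Rps4l (-2.41) lower and Rpl14 (1.83) higher (0.639% and 0.452% of all), and C57L/J had Rps9 (-5.29) lower (0.912% of all). C57BL10/J had none, where 0.163% of all were lower and 0.171% higher, although single tissues gave it Rps4l (-1.01) and Rps6 (-0.69) lower in hippocampus (limma adjusted p 0.00326 and 0.0428). Rps6 was not called there in 12 of 18 fits that left out 1 array (adjusted p up to 0.193) or without the filter (0.0601), while Rps4l was called in each of these fits.

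Of the 15 contrasts, C3H HeJ striatum had the most ribosomal protein probe sets called, nearly all of them higher. There 26 of 86 probe sets were called against C57BL6/J striatum, where 16.7% of all probe sets tested were, 24 of them higher (11% of all) and 2 lower (5.7%). The median difference was 0.14 over these probe sets and 0.03 over all probe sets tested. BalbC/J striatum had 7 called (7.48% of all), 3 higher (3.67%) and 4 lower (3.81%). C57BLKS/J striatum had 3 called (2.17%), 1 higher (0.937%) and 2 lower (1.24%), and C57L/J striatum 3 called (4.06%), 0 higher (1.82%) and 3 lower (2.24%). C57BL10/J striatum had 0 called by limma (0.514% of all, 0.275% higher and 0.239% lower). The 24 comprised 9 large and 15 small subunit probe sets. With quantile-normalized values within the tissue, 21 were higher and 2 lower.

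Small subunit genes gave the widest of these C3H HeJ differences, named here after their values were seen. Rps18, of the small subunit head, was higher on 3 probe sets, by 0.45 (SE 0.05), 0.46 (SE 0.07) and 0.47 (SE 0.06), with limma adjusted p of 5.50e-05, 0.000343 and 0.000121. Rps10 was higher on 2 probe sets, by 0.36 and 0.20, and Rps20 on 2, by 0.38 and 0.29. Rps19, the gene most often mutated in human Diamond-Blackfan anaemia, was higher by 0.37 (SE 0.09, limma adjusted p 0.0111). Among large subunit genes, Rpl35 was higher on 4 probe sets by 0.23 to 0.30, Rpl10a by 0.33 and Rpl27 by 0.29. The 2 probe sets that were lower were 1434624_x_at of Rps9 and 1455600_at of Rps3, described above, while 1435151_a_at of Rps3 was higher by 0.27 (limma adjusted p 0.0199).

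Array by array, the median deviation of the ribosomal protein genes from their tissue mean was 0.12, 0.14 and 0.13 in the C3H HeJ striatum pools, against -0.04, -0.05 and -0.03 in the C57BL6/J striatum pools. Over all genes the same deviation was 0.02, 0.04 and 0.05 in C3H HeJ and 0.01, -0.04 and -0.03 in C57BL6/J. The count of 26 was 16 without the second untested C3H HeJ pool and likewise 16 without the tested pool of C57BL6/J, 13 without its first untested pool and 12 without its second, with 2 lower each time. Other measures were compared between the same groups. The 3' to 5' signal difference of the Gapdh control probe sets was 0.30, 0.32 and 0.40 in C3H HeJ and 0.16, 0.24 and 0.21 in C57BL6/J striatum. Other strains overlapped with C3H HeJ in this. Their striatum values were 0.12, 0.22 and 0.33 (BalbC/J), 0.22, 0.24 and 0.37 (C57BL10/J), 0.31, 0.19 and 0.20 (C57BLKS/J) and 0.32, 0.17 and 0.33 (C57L/J). The ribosomal protein deviation in these striatum pools was 0.05, -0.02 and -0.01 (BalbC/J), 0.03, 0.15 and -0.05 (C57BL10/J) and 0.01, -0.02 and 0.03 (C57BLKS/J). It was -0.05, -0.09 and -0.21 in the C57L/J pools, the last in the pool with the lowered striatal markers. The 3' to 5' difference of the Actb control probe sets overlapped, at 0.73, 0.70 and 0.79 in C3H HeJ and 0.67, 0.73 and 0.74 in C57BL6/J striatum. Of 6 oligodendrocyte markers, 5 were lower in C3H HeJ with no overlap, and the log2 of their summed signal was 16.50 to 16.58 in C3H HeJ and 16.77 to 16.90 in C57BL6/J. Of 7 microglial markers 2 were lower and 2 higher without overlap, with summed levels of 12.43 to 12.70 in C3H HeJ and 12.98 to 13.07 in C57BL6/J. Astrocyte markers, 1 higher and 1 lower of 6, summed to 15.59 to 15.72 in C3H HeJ and 15.75 to 15.91 in C57BL6/J, and neuronal ones, 1 of 5 lower, to 15.75 to 15.91 in C3H HeJ and 15.93 to 15.99 in C57BL6/J. None was at 0, and no share of all probe sets without overlap is given beside these marker counts either. The part of RNA quality or cell makeup in the ribosomal protein difference was not tested.

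**Figure D3:**
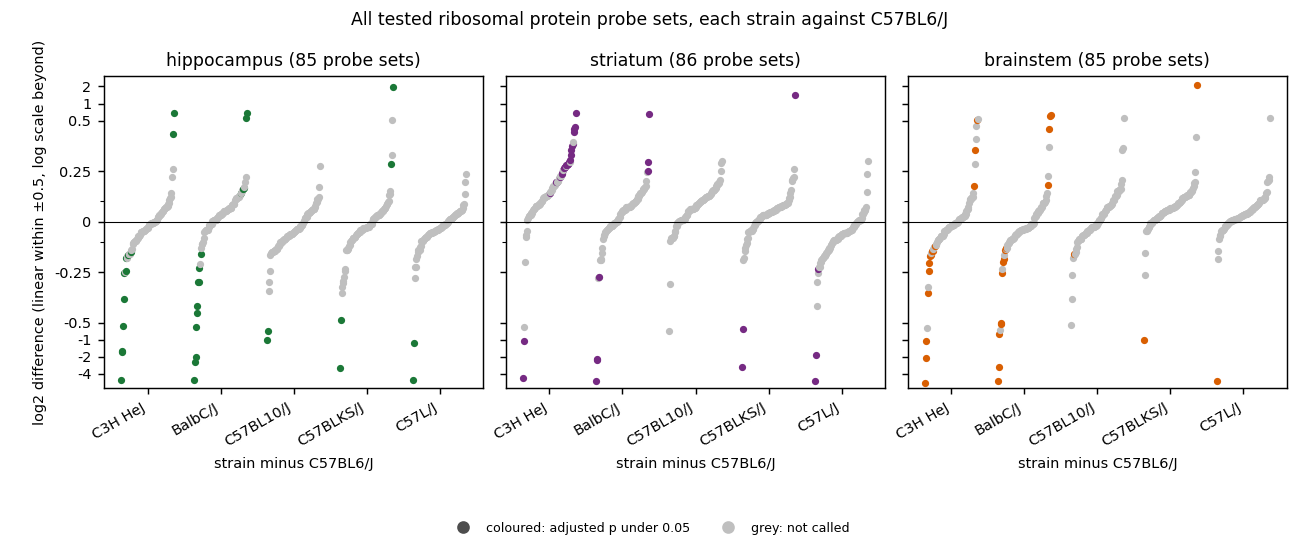
Each point is 1 tested ribosomal protein probe set, with 5 strains along the x axis, 1 panel per tissue, and the log2 difference from C57BL6/J on the y axis (linear near 0 and logarithmic beyond), coloured where called. Most points lie near 0, and a few, such as 1434624_x_at of Rps9 near -5 in C3H HeJ, BalbC/J and C57L/J, lie far off.

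**Figure D4:**
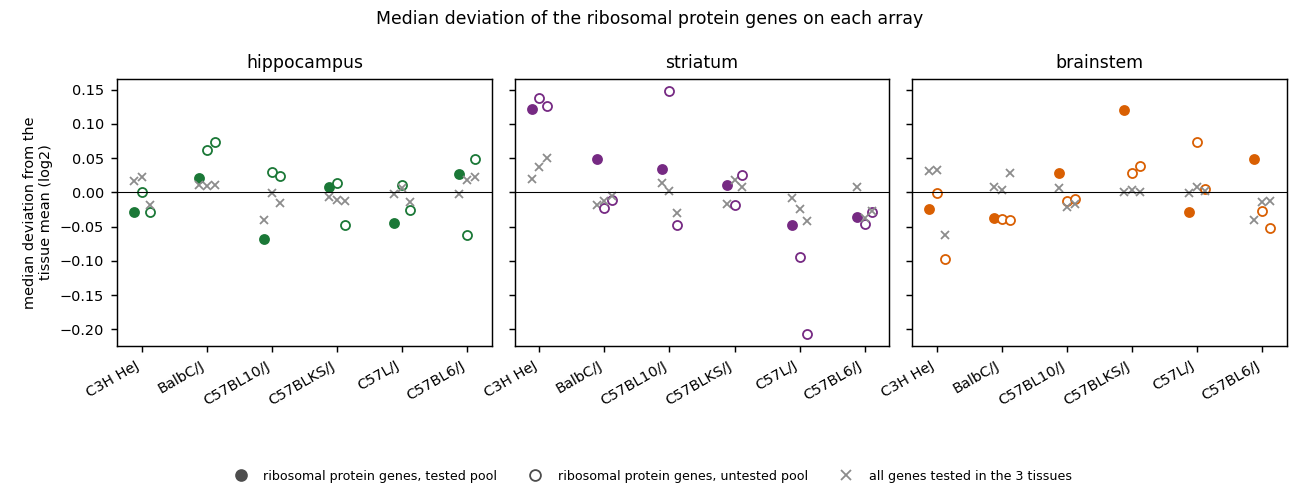
Each array's median deviation from the tissue mean (log2) is plotted by strain for the ribosomal protein genes and for all genes tested in the 3 tissues, with 1 panel per tissue. The C3H HeJ striatum pools lie at 0.12 to 0.14 and the C57BL6/J striatum pools at -0.05 to -0.03 for the ribosomal protein genes.

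Whether strain differences varied between tissues was tested on the probe sets measured in all 3 tissues. Of 85 ribosomal protein probe sets, 39 were called for strain by tissue, against 17% of all probe sets tested, in a model that takes the 54 arrays as independent although tissues of a strain shared mice. Rps2 had the smallest p (limma F 17.7, adjusted p 1.56e-08), with its lower C57BLKS/J signal in hippocampus and striatum described above. Rps24, a small subunit gene, followed on 1453362_x_at (limma adjusted p 0.000159), with 14.19 ± 0.06 in C3H HeJ and 13.96 ± 0.03 in C57BL6/J striatum, and 14.06 ± 0.07 in C3H HeJ and 14.16 ± 0.03 in C57BL6/J brainstem (SD, n = 3 each). Rpl27 on 1453096_x_at showed a like turn, with 13.30 ± 0.08 in C3H HeJ and 13.01 ± 0.03 in C57BL6/J striatum, and 13.33 ± 0.10 in C3H HeJ and 13.53 ± 0.06 in C57BL6/J brainstem. Rps4l and Rpl35 on 1455950_x_at were the other 2 among the 5 smallest (limma adjusted p 0.000395 and 0.000472).

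Tissues were compared over the 54 arrays after quantile normalization, since the lowest deposited values differed by tissue. Tissue differences were common over all genes as well. Between hippocampus and striatum 18 of 85 ribosomal protein probe sets were higher and 47 lower in hippocampus, against 41% and 45.1% of all probe sets tested. Between hippocampus and brainstem 46 were higher and 27 lower in hippocampus (40% and 43.6% of all), and between striatum and brainstem 55 were higher and 21 lower in striatum (45.4% and 45.6% of all). The median difference over these probe sets was -0.09, 0.10 and 0.17 in the 3 comparisons, against -0.03, -0.01 and -0.00 over all probe sets. On the deposited scale the hippocampus to striatum split turned to 57 higher and 14 lower and the striatum to brainstem split to 25 higher and 50 lower, with member medians of 0.14 and -0.10 beside shifts of 0.24 and -0.22 over all probe sets. The direction for the family as a whole therefore depended on the scale in both comparisons with striatum, and 20 probe sets were called in opposite directions in each. Between hippocampus and brainstem the split on the deposited scale was 36 higher and 32 lower, and 1 probe set was called in opposite directions.

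A few probe sets differed between tissues by more than 2-fold and in the same direction on both scales. Rpl39, a small protein lining the exit tunnel of the large subunit, ran from 7.73 to 7.97 with a median of 7.89 over 18 hippocampus arrays, from 9.24 to 9.57 with a median of 9.37 over 18 striatum arrays, and from 7.61 to 7.86 with a median of 7.73 over 18 brainstem arrays. It was lower in hippocampus than in striatum by a log2 difference of -1.51 and higher in striatum than in brainstem by 1.66 (limma adjusted p 2.61e-35 and 4.75e-37). Rps27, a zinc finger protein of the small subunit, was higher in striatum in the same way, at 4.70 to 4.94, against 3.13 to 3.59 in hippocampus and 2.99 to 3.51 in brainstem, levels near the 40th percentile of the arrays. Its paralogue Rps27l, which is known as a target of p53, was lower in hippocampus and in striatum than in brainstem, by the smaller differences of -0.66 and -0.63.

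Rpl12, a protein at the base of the stalk that binds elongation factors, was higher in hippocampus than in brainstem by 1.29 and in striatum than in brainstem by 1.20 (limma adjusted p 1.31e-21 and 9.08e-21). Its single-symbol probe set is dim, at a mean of 5.92, and 2 further probe sets name it beside other symbols. Rpl14 was lower in hippocampus and striatum than in brainstem by -1.68 and -1.52. Averaged over strains, Rps4l was higher in hippocampus than in striatum by 1.87 and lower in hippocampus and striatum than in brainstem by -1.01 and -2.88 (limma adjusted p 6.33e-18, 1.70e-10 and 3.86e-24). The strains did not share these differences equally, since Rps4l was called for strain by tissue (limma adjusted p 0.000395). In C57BL6/J its deposited values in hippocampus and brainstem, given above, overlapped. Among brighter probe sets the differences were smaller. Rps15 and Rps2 were higher in hippocampus than in brainstem by 0.45 and 0.44, and the brightest Rps18 probe set was higher in striatum than in brainstem by 0.53, in the same direction on the deposited scale. Rpl22 and Rpl41, a very small large subunit protein, were lower in hippocampus than in striatum on their brightest probe sets, by -0.42 and -0.41 (-0.17 and -0.15 on the deposited scale). Other probe sets of both genes went the opposite way, 1448398_s_at of Rpl22 by 0.65 and 1454639_x_at and 1433530_at of Rpl41 by 0.12 and 0.28, so no direction is given for these genes. The core stalk protein gene Rplp0 was higher in hippocampus than in striatum by 0.14.

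**Figure D5:**
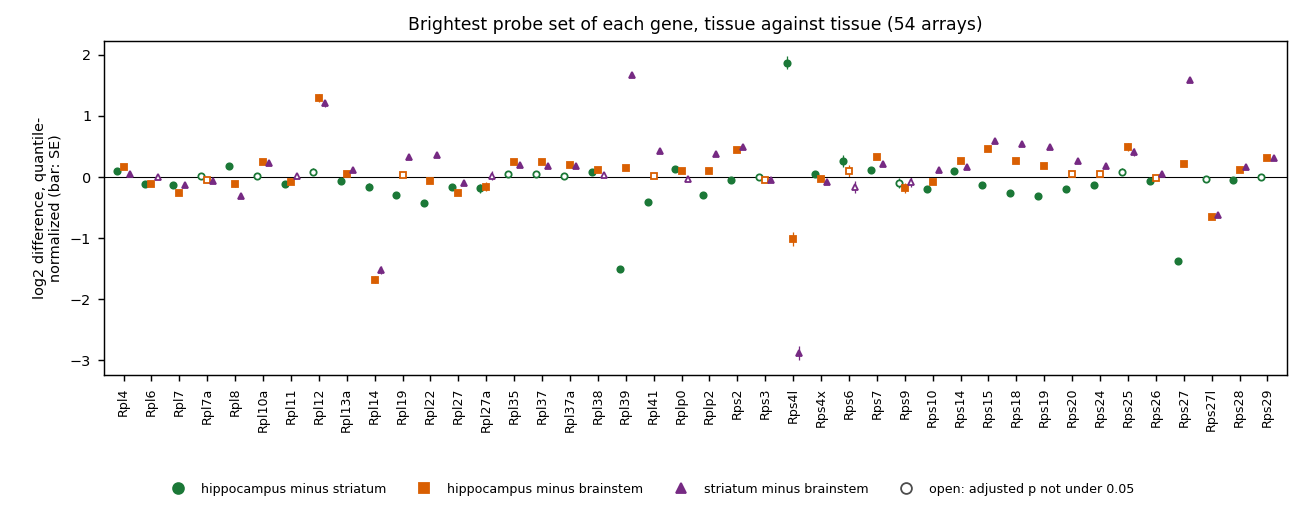
The log2 difference between 2 tissues on quantile-normalized values is plotted with its SE for the brightest probe set of each tested ribosomal protein gene. Rpl39 and Rps27 stand more than 1 higher in striatum than in the other tissues, and Rps4l and Rpl14 stand lower in striatum than in brainstem by -2.88 and -1.52.

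Testing for prepulse inhibition gave no call among ribosomal protein probe sets in any tissue, nor among all probe sets tested (0% called), by limma at an adjusted p under 0.05. At an unadjusted p under 0.05, 4 ribosomal protein probe sets passed in hippocampus, 2 in striatum and 0 in brainstem, where 4.63%, 4.13% and 2.47% of all did. The smallest p were for Rpl27 on 1416099_at, with a difference between tested and untested pools of -0.09 (limma p 0.0203, adjusted p 1.00) in hippocampus, and for Rps3 on 1455600_at, with 0.21 (limma p 0.0323, adjusted p 1.00) in striatum. Rpl27a differed by 0.25 and Rps20 on 1456436_x_at by -0.09 in hippocampus, and Rps6 by 0.25 and Rps19 by 0.12 in striatum. In brainstem Rpl35, Rpl12 and Rps18 on 1421838_at came first, with 0.05, 0.13 and -0.06, none at an unadjusted p under 0.05. With 1 tested pool per strain, 6 tested pools stood against 12 untested ones in each tissue.

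Ribosomal protein genes varied together between pools beyond strain and testing. After removal of both, the correlation over the 18 arrays of a tissue had a median of 0.23, 0.39 and 0.40 (hippocampus, striatum and brainstem) over all pairs of the 42 tested genes on their brightest probe sets. Over pairs of all genes the median was 0.02, 0.03 and 0.06. Correlations over 0.5 made up 30.1%, 39.4% and 39.4% of the ribosomal protein pairs, against 9.84%, 11.8% and 17.1% of all pairs. The pairs of all genes were not matched to these genes for signal level, and some of the brightest probe sets are of the _x_at kind. The points of such a correlation share the same arrays and the same normalization, so the values are given as a description.

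Genes tied to the ribosome outside the symbol pattern were counted for comparison, each on its brightest probe set. Over all probe sets tested, 32.7%, 23.9% and 22.3% were called across strains in hippocampus, striatum and brainstem. Of 4 ribosomal proteins and paralogues with other names, 2, 3 and 3 were called across strains in hippocampus, striatum and brainstem. Rpsa, the small subunit protein also known as the laminin receptor, had ranges of 0.38, 0.89 and 0.40 with limma adjusted p of 0.0189, 0.000106 and 0.000197, and in striatum it stood at 0.43 in C3H HeJ and -0.46 in C57BLKS/J relative to C57BL6/J. Of 15 translation factors and related genes whose messenger RNAs begin like those of ribosomal proteins, 3 were called in each tissue, among them Npm1, Naca and Eef1b2 in hippocampus with ranges of 0.17 to 0.25. Of 20 tested ribosome assembly genes 4, 3 and 5 were called, and Nop56, a core protein of small nucleolar particles, had a range of 0.68 in hippocampus (limma adjusted p 3.92e-06). Of 10 genes of growth signalling to ribosomes 3 were called in each tissue, including Tsc1 and Tsc2, which restrain mTOR, with ranges of 0.43 and 0.63 in hippocampus.

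Of 73 mitochondrial ribosome genes, 28, 20 and 23 were called across strains in hippocampus, striatum and brainstem, beside the same 32.7%, 23.9% and 22.3% of all. Mrpl55, a large subunit protein of that ribosome, was lower in C3H HeJ, BalbC/J, C57BLKS/J and C57L/J hippocampus by -1.71, -1.75, -1.83 and -1.76 relative to C57BL6/J (range 1.83, limma adjusted p 4.90e-08). In C3H HeJ striatum the mitochondrial ribosome list had 14 higher and 3 lower of 73 (11% and 5.7% of all) with a median of 0.18, and the assembly genes 4 higher and 2 lower of 20 with a median of 0.16. The translation factors and related genes had 2 higher and 0 lower of 15 with a median of 0.17. The genes of growth signalling had 1 higher and 1 lower of 10 with a median of 0.06, and the ribosomal protein probe sets a median of 0.14 in the same contrast.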

How the data were processed

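The authors deposited log2 expression values, 1 per probe set and array. The submitters' processing notes name R 2.6.1, affy 1.16.0, RMA, GCRMA 2.10.0 and limma 2.12.0, without saying which method made these values. No source used here gives hybridization batches or scan dates. TRIzol was used for RNA extraction, per the labels' protocols. The growth protocol leaves C57BL10/J out of its strain list, while the sample labels include it.

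All tests were run in R 4.3.3 with limma 3.58.1. The table holds 45101 probe sets, of which 64 controls were set aside, 34945 had 1 symbol in the platform annotation, 932 had several and 9160 were unnamed. Models with strain and testing were fitted per tissue to all probe sets that passed the 40th percentile on 3 or more arrays, with lmFit and eBayes and an intensity trend. Tests were two-sided, with Benjamini-Hochberg adjustment over all probe sets tested. Probe set pairs were tested on within-array differences, tissues on quantile-normalized values over 54 arrays. All 3 arrays of a strain and tissue are labelled biological replicates of separate pools. The fits across tissues take arrays as independent. Scripts were tested on simulated data. Figures were drawn with matplotlib 3.10.9.

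The members and gene lists were chosen with earlier results of these data known. Named are the 10 widest 6-strain ranges called in all 3 tissues, the 3 highest and 3 lowest per strain, pairs called in all 3 tissues, the 3 smallest p for testing, the 5 highest and 5 lowest per tissue contrast, the 5 smallest p for strain by tissue, 4 per other list, and a fixed set (Rps9, Rps6, Rps27, Rps27l, Rps4l, Rpl22, Rpl3l, Rpl39l, Rplp0, Rplp2). The alternatives tried were no filter, no intensity trend, another normalization, a replicate block and leaving out each array.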

Additional observations from a re-analysis of the deposited data

Results flagged for a closer look

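These results are listed because the strain differences varied between tissues by limma's strain by tissue F test on values as deposited. The adjusted p was 1.56e-08 for Rps2, 0.000159 for Rps24 on 1453362_x_at, 0.000216 for Rpl27 on 1453096_x_at, 0.000395 for Rps4l and 0.000472 for Rpl35 on 1455950_x_at. It was 0.00125 for Rps3 on 1455600_at, 0.00194 for Rpl7 on 1426162_a_at and 0.00421 for Rpl22 on 1453118_s_at. For Rps9 it was 0.0104 on 1433689_s_at and 0.0496 on 1434624_x_at, and for Rpl14 0.0173. For Rps14 on 1437706_x_at it was 0.0331, for Rplp2 0.0371 and for Rpl13a on 1433928_a_at 0.0379. Rplp2, a stalk protein gene, was highest in C3H HeJ striatum, at 14.49 ± 0.01, against 14.34 ± 0.02 in C57BL6/J striatum (SD, n = 3 each), although its 6-strain test was not called there (limma adjusted p 0.0848).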

How the results depend on the processing

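Counts of called ribosomal protein probe sets or pairs were recomputed for 28 comparisons. Of 112 values under settings other than leaving out an array, 102 were within 1.5 times the reported count and 10 were not. Without an intensity trend in limma's eBayes, the 6-strain hippocampus count was 17 in place of 26, C57BL10/J brainstem 0 in place of 1 and brainstem probe set pairs 4 in place of 7. Without the filter, C57BL10/J hippocampus gave 1 in place of 2, C57BLKS/J brainstem 1 in place of 2 and brainstem pairs 11 in place of 7. With quantile normalization within the tissue, C57BLKS/J striatum gave 5 in place of 3 and C57BL10/J brainstem 2 in place of 1. The replicate block gave 1 in place of 2 for C57BL10/J hippocampus and for C57BLKS/J brainstem, 32 in place of 39 for strain by tissue, and moved no other count by over 1.5 times. Same-numbered arrays of a strain had a median correlation of deviations of 0.005, 0.10 and 0.005 between tissues, with 4, 9 and 4 of 18 pairs over 0.1, so the numbers were not taken as pairs. The cause of these changes was not tested.

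Leaving out 1 array gave, in hippocampus, 17 to 32 (6 strains), 7 to 21 (C3H HeJ), 9 to 20 (BalbC/J), 1 to 4 (C57BL10/J), 3 to 10 (C57BLKS/J), 2 to 3 (C57L/J) and 8 to 12 (pairs). In striatum it gave 24 to 46, 12 to 30, 5 to 9, 0 to 0, 3 to 5, 2 to 6 and 4 to 7 in that order. In brainstem it gave 14 to 28, 5 to 17, 7 to 16, 0 to 9, 1 to 5, 1 to 3 and 5 to 9. The brainstem highs of 9 for C57BL10/J and 5 for C57BLKS/J came without the second untested C3H HeJ pool. C57BLKS/J striatum gave 5 without the tested BalbC/J pool and C57L/J striatum 6 without its tested pool. Testing gave 0 each time. Tissue comparisons gave 63 to 67, 69 to 75 and 74 to 77, and strain by tissue 31 to 46.

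Among single probe sets, 1426162_a_at of Rpl7 lost its call without the trend in all 3 tissues (limma adjusted p 0.114, 0.0891 and 0.0626), and 1433689_s_at of Rps9 lost its call in striatum and brainstem without the trend (0.0566 and 0.0655) and without the filter (0.0625 and 0.0642). In hippocampus 1426162_a_at of Rpl7 lost its call without the filter (0.0505) and with the replicate block (0.0545), which also ended the calls of 1433689_s_at of Rps9 in brainstem (0.0544), of Rps6 in C57BL10/J hippocampus (0.0539) and of Rps4l in BalbC/J and C57BLKS/J brainstem (0.0563 and 0.0540). Without the filter the Rps4l values were 0.0715 and 0.0622. Of the 18 fits that left out 1 array, 1433689_s_at lost its call in 2, 10 and 12 (hippocampus, striatum and brainstem), 1426162_a_at in 14 (hippocampus) and 13 (striatum), and 1436586_x_at of Rps14 in 3 (striatum). Array number limits the precision of every value.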
